A study of Mus musculus with 18 samples.

Results

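The 9 genes described here encode neuropeptides that are made in the hippocampus or in the tissue beside it: *Sst*, *Cort*, *Npy*, *Vip*, *Cck*, *Crh*, *Penk*, *Pdyn* and *Tac1*. They were taken by name from the 15329 genes of the deposited expression table, and all 9 were listed, with reads in each of the 18 libraries. The table came from bulk RNA-seq of whole hippocampi of C57BL/6J mice aged 8 to 10 weeks, with 1 library per mouse and 3 mice per group, so p-values measure the spread between these mice. WT mice and mice with a knockout (KO) of *Ccny*, which encodes the cyclin CCNY, were compared in 3 states. Untrained mice formed the groups WT_Basal and KO_Basal, mice that had learned the platform position in the Morris water maze formed WT_OL and KO_OL (original learning), and mice that had then learned a moved platform position formed WT_RL and KO_RL (reversal learning). The untrained groups were shared by the original and the reversal learning comparisons, and the original learning groups by the comparisons of both stages.

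Neuropeptides are cut out of larger precursor proteins, stored in dense-core vesicles and released upon strong firing, after which they act on G protein-coupled receptors. In the hippocampus, SST, cortistatin, NPY, VIP, CCK and CRH mark classes of GABAergic interneurons. The enkephalin precursor (*Penk*), the dynorphin precursor (*Pdyn*, present in granule cell mossy fibers) and the substance P precursor (*Tac1*) are made by some hippocampal neurons and at high levels by projection neurons of the neighboring striatum. Several peptide promoters carry the cAMP response element, the site of the activity-regulated factor CREB.

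RefSeq promoters on GRCm38.p6 were available for 7 of the 9 genes, in 8 entries because *Pdyn* had 2. *Penk* and *Crh* were not matched. The palindromic element TGACGTCA was found on either strand in 588 of 32851 promoters (1.79%) and, among these genes, only in *Sst*, beginning 48 bases before the start. The shorter element TGACG or its reverse CGTCA, which also lies within the palindrome, was found in 20.8% of all promoters and in 5 of the 7 matched genes. It was not in the windows of *Npy* or *Pdyn*. In *Tac1* it began 197 and 43 bases before the start, and only the nearer one lies in the 90 bases printed below. The 90 bases before the RefSeq start of the 5 genes are printed 5′ to 3′ on the strand of the gene, with the element in capitals, because they show where this sequence lies within that stretch. They are chr16:23890845-23890934 on the minus strand for *Sst*, chr4:149126764-149126853 on the minus strand for *Cort*, chr9:121495695-121495784 on the minus strand for *Cck*, chr10:5639128-5639217 on the plus strand for *Vip* and chr6:7554971-7555060 on the plus strand for *Tac1*.
Sst: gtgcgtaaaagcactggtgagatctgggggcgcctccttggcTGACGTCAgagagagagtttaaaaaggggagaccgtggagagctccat
Cort: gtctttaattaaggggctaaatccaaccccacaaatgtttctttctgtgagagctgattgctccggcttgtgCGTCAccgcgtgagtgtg
Cck: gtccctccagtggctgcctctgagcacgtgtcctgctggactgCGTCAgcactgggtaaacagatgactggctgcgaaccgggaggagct
Vip: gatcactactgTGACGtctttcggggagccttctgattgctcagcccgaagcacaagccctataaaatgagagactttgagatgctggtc
Tac1: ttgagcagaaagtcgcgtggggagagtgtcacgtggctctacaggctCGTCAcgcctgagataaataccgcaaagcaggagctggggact
The window of *Vip* also held the TATA sequence TATAAA, which was in 13.6% of all promoters and in no other matched gene of the group. Letters in a window describe the sequence and were not tested for binding of a factor. The printed bases of *Sst* and *Tac1* lie inside the GENCODE gene spans given for them below.

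Each library held 29248557 to 37915576 reads on these 15329 genes. *Ccny* lay at 107 to 158 CPM (read counts scaled to library size) in the 9 WT libraries and at 74.0 to 95.8 CPM in the 9 KO libraries, without overlap. The libraries also differed in ways that the genotype does not name. Summed over marker genes, choroid plexus epithelium ranged from 221 to 13007 CPM, hypothalamic neurons from 4.52 to 129 CPM, and striatal projection neurons from 173 to 841 CPM. The correlation across genes between a library's deviation from the mean and transcript GC content (Spearman's rho) was −0.539 to −0.326 in the 6 untrained libraries and −0.0352 to 0.393 in the 12 trained ones, so this index separated the untrained from the trained mice, and GC-related and training-related differences cannot be told apart. In bulk tissue, fewer cells of a type and less RNA per cell cannot be told apart either.

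Levels of different genes were set side by side as CPM per kb of the longest transcript, averaged over the 18 libraries. *Sst* stood highest at 316 CPM per kb, followed by *Cck* at 252 CPM per kb, and *Sst* exceeded *Cck* in 18 of 18 libraries, by a median ratio of 1.26. *Npy* followed at 75.2 CPM per kb and lay below *Cck* in each library. *Penk* averaged 50.1 CPM per kb, but its order was not fixed: *Npy* was above it in 12 of 18 libraries. *Cort* at 10.1, *Pdyn* at 8.57, *Vip* at 8.49 and *Tac1* at 7.39 CPM per kb were neighbors whose ranges overlapped, and *Pdyn* was above *Vip* in only 9 of 18 libraries. *Crh* was lowest at 1.18 CPM per kb, with 35 to 71 reads per library.

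The 9 genes differed in how far they spread between single mice. The highest library held 8.48 times the CPM of the lowest for *Penk*, 3.71 times for *Tac1*, 3.33 times for *Pdyn* and 3.18 times for *Vip*. For *Cort*, *Crh*, *Sst*, *Cck* and *Npy* this ratio was 2.59, 1.99, 1.96, 1.80 and 1.58. The standard deviation within groups, on the log2(CPM + 1) scale, was 1.05 for *Penk*, above that of 99.9% of genes of like expression level. The same share was 98.9% for *Tac1*, 98.8% for *Pdyn* and 97.6% for *Vip*. It was 89.9% for *Sst*, 89.1% for *Cort*, 86.6% for *Npy*, 84.2% for *Cck* and 11.5% for *Crh*.

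**Figure D1:**
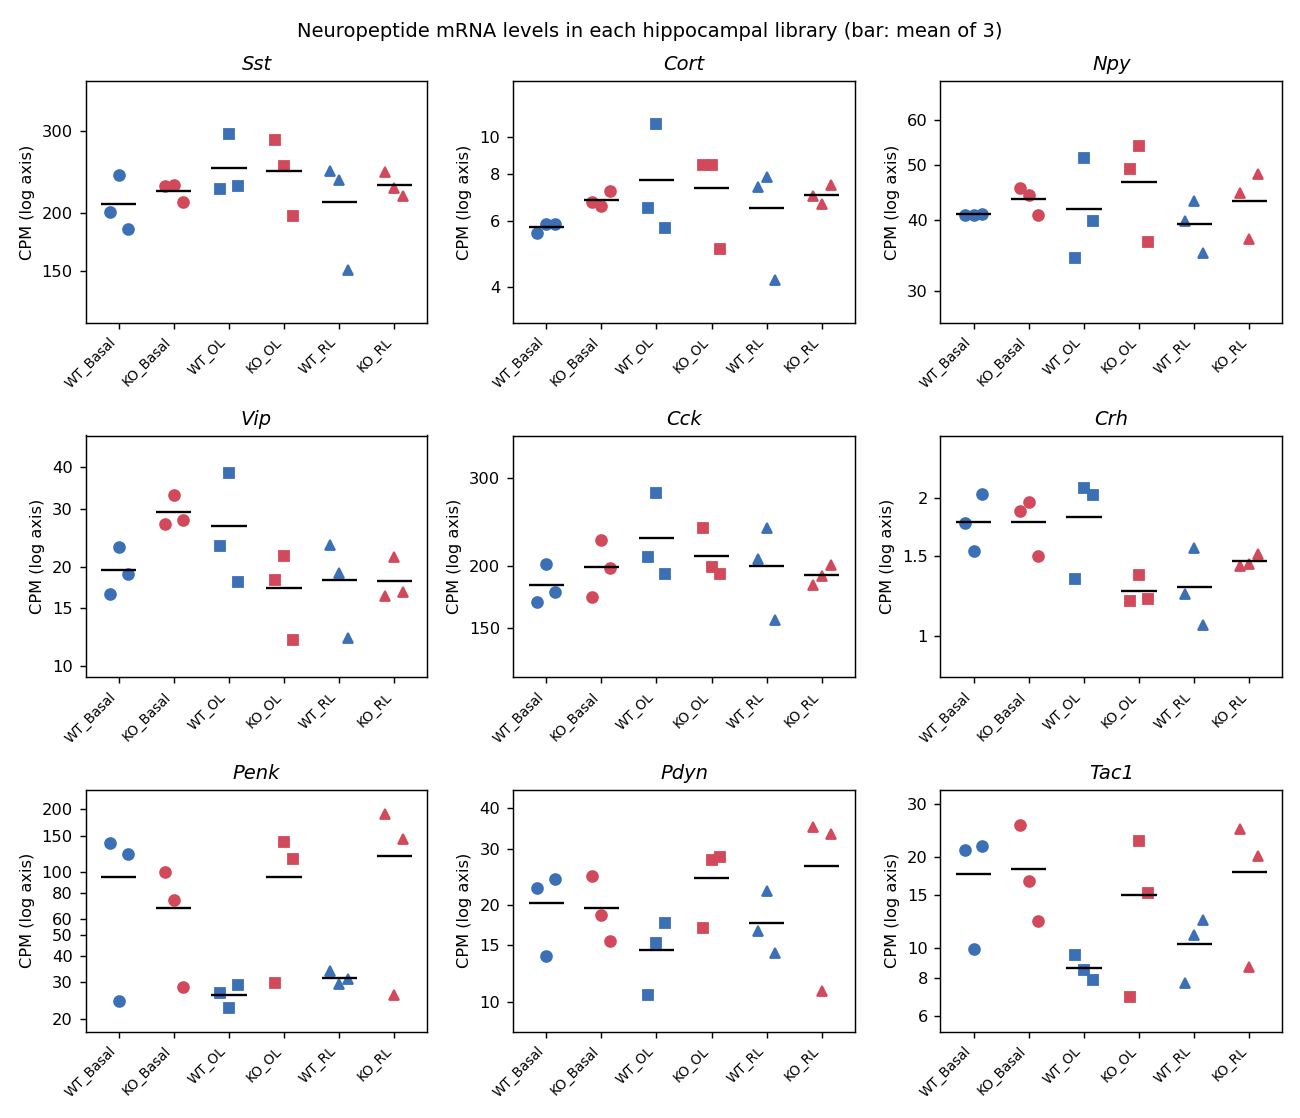
CPM on a log axis in each of the 18 libraries, by group, with a bar at the mean of the 3 mice (blue, WT; red, KO; circles, Basal; squares, OL; triangles, RL). *Penk* fell into 2 separate ranges, 22.5 to 33.8 CPM in 10 libraries and 73.9 to 191 CPM in 8, and the 6 libraries of WT_OL and WT_RL were all in the lower range.

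Across the 9 comparisons of 2 groups, limma called 1 of 81 differences of these genes at a Benjamini-Hochberg adjusted p-value under 0.05, taken over all 15329 genes, and 10 of 81 had an unadjusted p-value under 0.05. Over all genes, limma called 0% to 23.6% in the 9 comparisons. The share with an unadjusted p-value under 0.05 ran from 4% to 36.6% of all genes. The 1 call among the peptide genes was *Vip* in KO_OL against KO_Basal. A test on the recovered reads (limma with voom) gave the same number of calls in each of these comparisons. A log2 fold change here is a difference between group means of log2(CPM + 1).

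Among the interneuron peptides, *Vip*, which marks interneurons that mostly contact other interneurons, was lower in KO_OL than in KO_Basal. It lies on chromosome 10 (5639218 to 5647617, plus strand, GRCm38). It was at 27.0, 33.1 and 27.7 CPM in the 3 KO_Basal mice and at 18.3, 21.6 and 12.1 CPM in the 3 KO_OL mice. Each trained KO mouse was below each untrained one. *Vip* was lower in KO_OL by a log2 fold change of −0.76 (SE 0.257, limma, adjusted p = 0.0426, n = 3 and 3). In this comparison 1 of the 9 peptide genes (11.1%) was called, against 23.5% of all genes, and 2 of them (*Vip* and *Crh*) did not overlap between the groups, against 48.8% of all genes. The call did not depend on the test of the reads (log2 fold change −0.80 with voom, adjusted p = 0.0413) but ended when any 1 of KO_Basal replicates 1, 2 and 3 or KO_OL replicates 1 and 3 was left out, with adjusted p-values of 0.0738 to 0.195 in limma. The *Vip* transcript has a GC content of 38.7%, and after each library was corrected for the trend of its values with GC content the log2 fold change was −0.40 (limma, adjusted p = 0.320).

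After reversal learning *Vip* was at 16.3, 21.4 and 16.8 CPM in KO_RL. These values were all below KO_Basal and inside the range of KO_OL. The log2 fold change from KO_Basal was −0.66 (SE 0.257), which limma did not call (adjusted p = 0.0711). Here 0 of the 9 peptide genes were called, against 23.6% of all genes, while 1 of 9 had an unadjusted p-value under 0.05, against 36.6% of all genes, and voom called 0. *Vip* alone did not overlap between KO_RL and KO_Basal, against 45.3% of all genes.

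The WT mice showed another order. *Vip* was at 16.6, 22.9 and 19.1 CPM in WT_Basal, at 23.1, 38.4 and 17.95 CPM in WT_OL, and at 23.3, 19.2 and 12.2 CPM in WT_RL. The 3 groups overlapped, and the mouse at 38.4 CPM, WT_OL replicate 2, had the highest *Vip* level of all 18. The difference of the WT_OL and WT_Basal means was 0.36 on the log2 scale. The KO change with original learning minus the WT change was −1.12 (SE 0.363, unadjusted p = 0.00697 in limma, adjusted p = 0.388), so a difference between the genotypes was not called. Without WT_OL replicate 3 it was −1.35, with an adjusted p of 0.0409 in limma. For this difference between the genotypes limma called 0% of all genes.

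Between genotypes, the untrained KO mice were above the untrained WT mice in *Vip*, at a mean of 29.3 ± 3.33 CPM (SD, n = 3) against 19.5 ± 3.17 CPM, with no overlap. The log2 fold change of 0.56 was not called by limma (adjusted p = 0.994). *Cort* also did not overlap in this comparison, so that 2 of 9 peptide genes were apart, against 14.7% of all genes, and 0 of 9 were called, against 0.0196% of all genes, with 1 of 9 at an unadjusted p-value under 0.05, against 4% of all genes. After original learning the order of *Vip* was the opposite, at 17.3 ± 4.83 CPM in KO_OL and 26.5 ± 10.6 CPM in WT_OL, with overlapping mice and a log2 fold change of −0.55 (limma, adjusted p = 0.269).

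*Sst* encodes somatostatin, the peptide of dendrite-targeting interneurons, and lies on chromosome 16 (23889573 to 23890958, minus strand). It was at 200, 241 and 185 CPM in WT_Basal, at 225, 296 and 228 CPM in WT_OL, and at 246, 236 and 151 CPM in WT_RL. In the KO mice it was at 228, 230 and 211 CPM without training, at 287, 252 and 197 CPM after original learning, and at 245, 226 and 218 CPM after reversal learning. All groups overlapped with one another. The log2 fold changes between groups ran from −0.27 to 0.25 and none was called by limma, the lowest adjusted p being 0.370.

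*Cort* encodes cortistatin, a relative of somatostatin that binds the same receptors (chromosome 4, 149125034 to 149126763, minus strand). It was at 5.56, 5.89 and 5.89 CPM in WT_Basal and at 6.71, 6.55 and 7.19 CPM in KO_Basal. These groups stood apart, but the difference of 0.20 on the log2 scale was not called in limma. In the trained mice *Cort* spread over 4.18 to 10.8 CPM, with its lowest value in WT_RL replicate 3 and its highest in WT_OL replicate 2.

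*Npy* encodes neuropeptide Y, which dampens glutamate release (chromosome 6, 49822710 to 49829507, plus strand). It had the narrowest range, with group means from 39.3 ± 4.15 CPM in WT_RL to 46.6 ± 9.07 CPM in KO_OL (SD, n = 3), and the lowest adjusted p among its 9 comparisons was 0.578 in limma. *Cck*, whose peptide marks a class of basket cells and is also made by pyramidal neurons (chromosome 9, 121489824 to 121495694, minus strand), had group means from 183 ± 16.9 CPM in WT_Basal to 227 ± 46.4 CPM in WT_OL. Its log2 fold changes ran from −0.18 to 0.29 and none was called by limma.

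*Crh* encodes corticotropin-releasing hormone, a stress peptide found in hippocampal interneurons as well as in the hypothalamus (chromosome 3, 19693401 to 19695396, minus strand). It was at 1.88, 1.96 and 1.50 CPM in KO_Basal, at 1.20, 1.36 and 1.21 CPM in KO_OL and at 1.43, 1.44 and 1.51 CPM in KO_RL. KO_OL was below both other KO groups in every mouse, while KO_Basal and KO_RL overlapped. The log2 fold change of KO_OL from KO_Basal was −0.30 (SE 0.124), with an adjusted p of 0.0908 in limma. From KO_OL to KO_RL the difference was 0.13, and *Crh* alone did not overlap there, against 13.2% of all genes, with 0 of 9 peptide genes called by limma or voom against 0.0196% of all genes in limma, and 0 of 9 at an unadjusted p-value under 0.05, against 4.81% of all genes.

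In the WT mice *Crh* was at 1.76, 1.53 and 2.04 CPM without training, at 1.33, 2.11 and 2.03 CPM after original learning, and at 1.23, 1.56 and 1.06 CPM after reversal learning. WT_RL overlapped with both other WT groups. Its log2 fold change was −0.30 from WT_OL (limma, adjusted p = 0.258) and −0.28 from WT_Basal (limma, adjusted p = 0.131). The hypothalamic marker sum of 129 CPM belonged to KO_Basal replicate 1, whose *Crh* level of 1.88 CPM lay between those of the other mice of its group. This is a single library, and whether hypothalamic cells contributed to *Crh* was not tested.

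**Figure D2:**
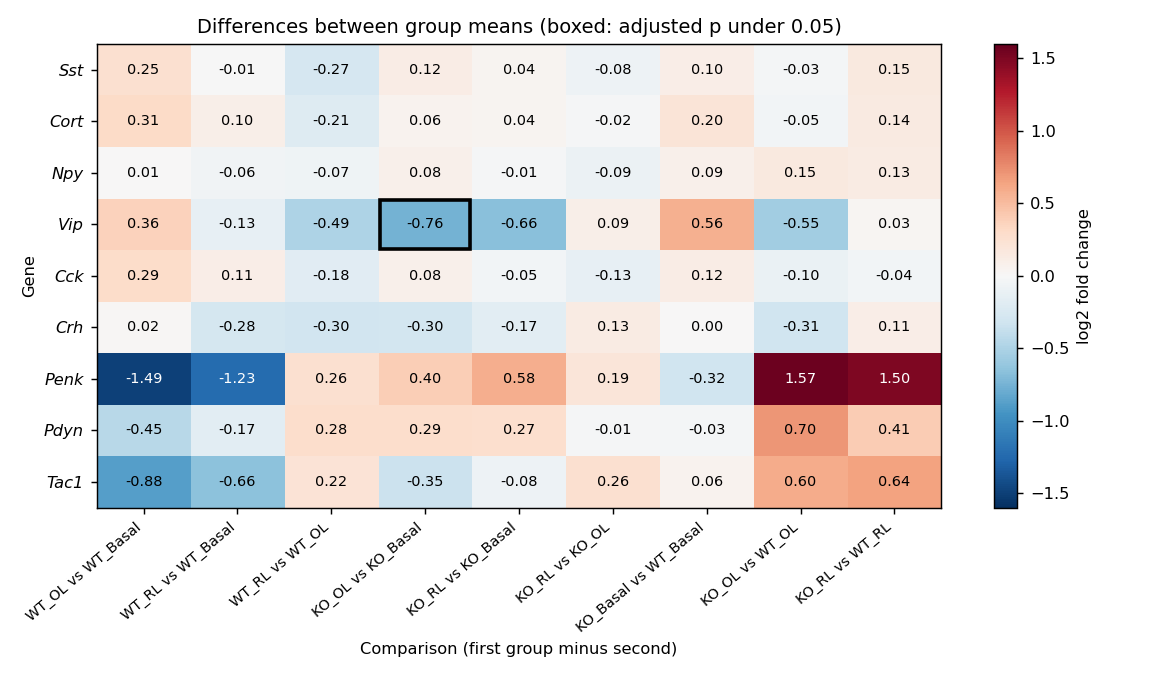
Log2 fold changes of the 9 genes in the 9 comparisons of 2 groups, first group minus second, with the value in each cell. The box marks *Vip* in KO_OL against KO_Basal at −0.76, and the widest differences are those of *Penk*, from −1.49 to 1.57, none of which was called.

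The opioid and tachykinin precursors had the highest ratios of highest to lowest library, with *Vip* close to *Pdyn*. *Penk* encodes the precursor of the enkephalins (chromosome 4, 4133531 to 4138819, minus strand). Its exons overlap those of *A830012C17Rik* on the other strand, and whether the counting used strand is not given in the sources used here. It was at 138, 24.2 and 122 CPM in WT_Basal, at 26.5, 22.5 and 28.9 CPM in WT_OL, and at 33.8, 29.1 and 30.9 CPM in WT_RL. In the KO mice it was at 100.2, 73.9 and 28.3 CPM without training, at 29.5, 140 and 116 CPM after original learning, and at 191, 25.8 and 145 CPM after reversal learning. One mouse of each KO group and of WT_Basal lay in the lower range, together with all WT_OL and WT_RL mice.

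The difference in *Penk* between KO_OL and WT_OL was 1.57 on the log2 scale (SE 0.736, limma, adjusted p = 0.274). The groups did not overlap, by 29.5 against 28.9 CPM, and *Penk* was the only one of the 9 peptide genes to stand apart there, against 16.5% of all genes. In this comparison limma and voom called 0 of 9, against 0.0652% of all genes in limma, and 3 of 9 had an unadjusted p-value under 0.05, against 18% of all genes. KO_RL against WT_RL gave 1.50 (limma, adjusted p = 0.986), with overlap. Neither limma nor voom called any of the 9 there (0 of 9, against 0% of all genes), 0 of 9 had an unadjusted p-value under 0.05, against 4.93% of all genes, and 0 of 9 stood apart, against 8.18% of all genes. Over the 3 states together, KO minus WT was 0.92 (SE 0.425, limma, adjusted p = 0.592), with 0 of 9 peptide genes called by limma or voom against 0.0326% of all genes in limma, and 1 of 9 at an unadjusted p-value under 0.05, against 8.36% of all genes. With training, WT_OL minus WT_Basal was −1.49 (limma, adjusted p = 0.213).

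*Pdyn* (chromosome 2, 129686565 to 129699844, minus strand) was at 22.6, 13.9 and 24.2 CPM in WT_Basal, at 10.5, 15.3 and 17.6 CPM in WT_OL, and at 16.7, 22.1 and 14.3 CPM in WT_RL. In the KO mice it was at 24.7, 18.6 and 15.5 CPM, at 17.0, 27.6 and 28.3 CPM, and at 35.1, 10.8 and 33.4 CPM in the same order of states. The groups overlapped, and the widest difference was 0.70 on the log2 scale between KO_OL and WT_OL, which limma did not call.

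*Tac1* (chromosome 6, 7554879 to 7565834, plus strand) was at 21.1, 9.96 and 21.7 CPM in WT_Basal, at 9.49, 8.48 and 7.85 CPM in WT_OL, and at 7.66, 11.03 and 12.4 CPM in WT_RL. In the KO mice it was at 25.6, 16.7 and 12.3 CPM, at 6.90, 22.7 and 15.3 CPM, and at 24.7, 8.64 and 20.1 CPM. WT_OL was below WT_Basal in every mouse, by −0.88 on the log2 scale (SE 0.402), which limma did not call (adjusted p = 0.177). In WT_OL against WT_Basal, 0 of the 9 peptide genes were called by limma or voom, against 9.5% of all genes in limma. There 1 of 9 had an unadjusted p-value under 0.05, against 25.9% of all genes, and *Tac1* alone did not overlap, against 28.3% of all genes.

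The 3 precursors were set beside a list of 12 striatal projection neuron markers, all of them listed. In the 10 libraries with *Penk* at 22.5 to 33.8 CPM, the sum of the 12 markers was 173 to 251 CPM, *Tac1* was 6.90 to 12.4 CPM and *Pdyn* was 10.5 to 22.1 CPM. In the other 8 libraries the sum was 295 to 841 CPM, *Tac1* was 15.3 to 25.6 CPM and *Pdyn* was 18.6 to 35.1 CPM. Marker sum and *Tac1* were thus apart between the ranges, and *Pdyn* overlapped. Among defining markers of the list, the adenosine receptor gene *Adora2a* was at 1.59 to 2.76 CPM in the 10 libraries and at 11.2 to 31.8 CPM in the 8, and the dopamine receptor gene *Drd1* at 4.54 to 7.81 and 9.97 to 35.6 CPM. *Drd2* overlapped, at 0.742 to 4.03 and 3.26 to 22.4 CPM. These ranges were read from the *Penk* values themselves and are no groups of the study.

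**Figure D3:**
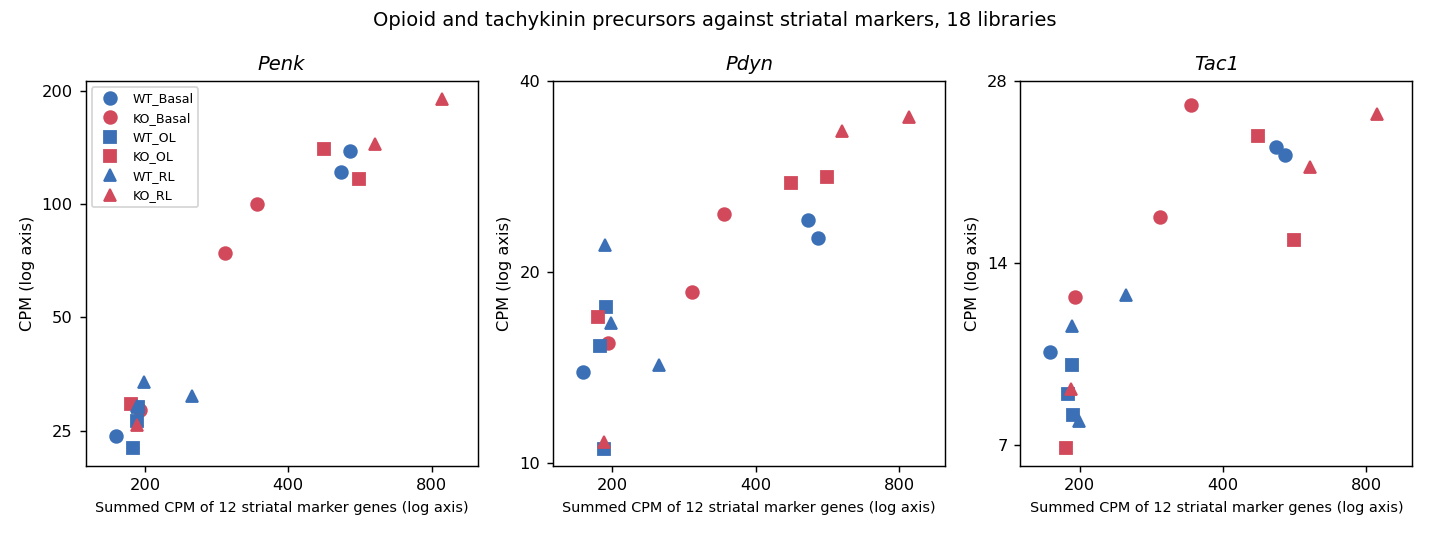
CPM of *Penk*, *Pdyn* and *Tac1* against the summed CPM of 12 striatal marker genes, both on log axes, in 18 libraries (blue, WT; red, KO; circles, Basal; squares, OL; triangles, RL). The 10 libraries with a sum of 173 to 251 CPM hold the lower *Penk* range, and the 8 with 295 to 841 CPM the higher one.

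Because the libraries fell into separate ranges, correlations were computed within each, for 10 relations in all. In the 8 higher libraries *Penk* and the mean log2 of the striatal markers gave r = 0.933 (exact permutation p = 0.00422, adjusted over the 10 relations 0.0372) and rho = 0.691 (exact permutation p = 0.0694, adjusted 0.174). Without the 2 libraries farthest from the median of the markers, r was 0.642. *Pdyn* and the markers gave r = 0.858 (permutation, adjusted p = 0.0372) and rho = 0.762 (permutation, adjusted p = 0.174), with r = 0.478 without the 2 farthest. In the 10 lower libraries *Tac1* and the markers gave r = 0.713 (permutation, adjusted p = 0.0489) and rho = 0.697 (permutation, adjusted p = 0.174), with r = 0.841 without the 2 farthest. *Penk* and the markers gave r = 0.177 there, and *Pdyn* and the markers r = 0.0138. In the 8 higher libraries *Tac1* and the markers gave r = 0.240 and rho = −0.119, with r = −0.812 without the 2 farthest. For r with the markers, no precursor had an adjusted permutation p-value under 0.05 in both ranges, and no rho of the 10 relations had one. Because the cut was made on *Penk*, its values within each range were confined beforehand, and mice of several groups were permuted together. A difference in r between the ranges therefore cannot decide whether a relation differs.

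With the mean log2 of the striatal markers as a covariate in the fit, the *Penk* difference between KO_OL and WT_OL was 0.29 in place of 1.57, and that between the genotypes over all states 0.12 in place of 0.92. The *Tac1* difference between WT_OL and WT_Basal was −0.24 in place of −0.88. The mean of the markers includes *Adora2a* (r = 0.978 with *Penk* and 0.921 with *Tac1*) and *Rarb* (r = 0.964 with *Penk*). It was 2.76 to 2.82 in WT_OL and 2.60, 4.30 and 4.55 in KO_OL. Smaller differences of these precursors under the covariate were therefore largely fixed beforehand, and their cause was not tested. Under this covariate *Tac1* took the place of *Vip* as the called gene in KO_OL against KO_Basal, and over both genotypes the *Tac1* difference of OL from Basal was −0.41 (limma, adjusted p = 0.00941), against −0.61 without it (limma, adjusted p = 0.118). *Vip* in KO_OL against KO_Basal was −0.69 under the covariate (limma, adjusted p = 0.0508). Of the 12 markers themselves, 0 were called by limma in any of the 9 comparisons.

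The genes most like each precursor over the 18 libraries, by Pearson's r of log2 values among genes with a mean of at least 1 CPM, were *Adora2a* (0.978), *Cd4* (0.966) and *Rarb* (0.964) for *Penk*. For *Pdyn* they were *Pde1b* (0.932), *Drd2* (0.902) and *Cpne5* (0.875). For *Tac1* they were *Adora2a* (0.921), *Nexn* (0.917) and *Penk* (0.91). *Adora2a*, *Rarb* and *Drd2* are among the 12 striatal markers.

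Several interneuron peptides varied together between mice, and genes outside the peptide group varied as closely with some of them. Of 15 pairs among *Sst*, *Cort*, *Cck*, *Npy*, *Vip* and *Crh*, 9 had a Pearson's r and 5 a Spearman's rho with an adjusted permutation p-value under 0.05. Mice of all groups were permuted together, so differences between groups also enter these p-values. The share of all gene pairs with such values was not computed, and *Ctxn1*, outside the group, gave r = 0.905 with *Sst*. Of the 15 pairs, *Sst* and *Cort* were closest, with r = 0.860 (permutation p = 2e-05, adjusted p = 0.0003) and rho = 0.750 (permutation p = 0.0005, adjusted p = 0.0075) over 18 libraries. The r was 0.847 for deviations from the group means, 0.821 after the GC correction and 0.706 without the 2 libraries farthest from the median of *Sst*. *Cck* and *Cort* gave r = 0.795 (rho = 0.659), *Sst* and *Cck* r = 0.784 (rho = 0.668) and *Npy* and *Cort* r = 0.766 (rho = 0.717), each with adjusted permutation p-values of 0.00075 for r. For rho the adjusted permutation p was 0.0129 for *Cck* and *Cort*, 0.0129 for *Sst* and *Cck*, and 0.00877 for *Npy* and *Cort*. Without the 2 libraries farthest from the median of *Cck*, *Sst* and *Npy*, in this order, these values of r were 0.547, 0.594 and 0.669.

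*Vip* and *Cort* gave r = 0.641 over all libraries (permutation, adjusted p = 0.0109) with rho = 0.465 (permutation, adjusted p = 0.113). Their r was 0.860 for deviations from the group means and 0.391 without the 2 libraries farthest from the median of *Vip*. *Vip* and *Sst* gave r = 0.578 (permutation, adjusted p = 0.0231) with rho = 0.434 (permutation, adjusted p = 0.135). Here r was 0.803 for deviations from the group means, 0.733 after the GC correction and 0.211 without the 2 libraries farthest from the median of *Sst*. Over all libraries each of these relations rested in large part on its own 2 farthest libraries. *Crh* gave r = 0.547 with *Vip* (permutation, adjusted p = 0.0308) with rho = 0.391 (permutation, adjusted p = 0.183). The r of *Crh* and *Vip* was 0.275 for deviations from the group means and 0.356 without the 2 libraries farthest from the median of *Vip*. With *Npy*, *Cort*, *Cck* and *Sst*, *Crh* gave r of 0.310, 0.221, 0.200 and 0.190, none with an adjusted permutation p-value under 0.05, and with *Npy* r was 0.621 for deviations from the group means.

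**Figure D4:**
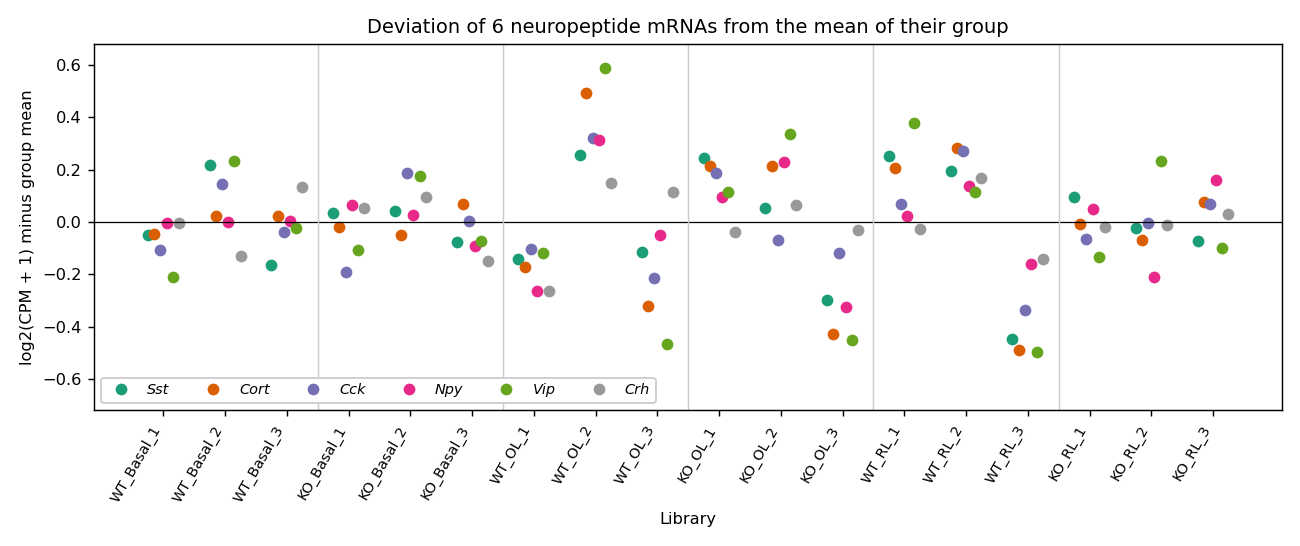
Deviation of 6 peptide genes from the mean of their group, as log2(CPM + 1), in each library. WT_OL replicate 2 lay above its group mean in all 6 genes, by 0.59 for *Vip*, 0.49 for *Cort* and 0.26 for *Sst*, and WT_RL replicate 3 lay below it in all 6, by −0.50, −0.49 and −0.45.

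Single mice stood at the extremes of several of these genes. WT_OL replicate 2 had the highest level of *Sst*, *Vip*, *Cck*, *Crh* and *Cort* among the 18 and the lowest of *Penk*. WT_RL replicate 3 had the lowest level of *Sst*, *Cck*, *Crh* and *Cort*. The genes most like *Sst* were *Ctxn1* (r = 0.905), *Cacnb3* (0.895) and *Rbfa* (0.879), those most like *Cck* were *Eif6* (0.927), *Rell2* (0.903) and *Mcrs1* (0.9), and those most like *Cort* were *Ttc9b* (0.862), *Sst* (0.86) and *Coq4* (0.855). Among the genes most like *Vip* were *Gucy2g* (0.944) and *Kifc2* (0.908), and r with *Kifc2* was 0.629 after the GC correction. *Npy* was most like *Myl4* (0.808), *Cort* (0.766) and *Stk32c* (0.766), and *Crh* like *Mapre1* (0.811), *9630013A20Rik* (0.794) and *Sh3gl3* (0.792). In the same order, r with *Crh* was 0.515, 0.566 and 0.688 for deviations from the group means, and 0.603, 0.65 and 0.814 after the GC correction.

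In the remaining comparisons the peptide genes gave no call by limma or voom. WT_RL against WT_OL called 0 of 9 in limma, against 0.261% of all genes, with 1 of 9 at an unadjusted p-value under 0.05 (16.4% of all genes), and *Penk* alone did not overlap (11.1% of all genes). WT_RL against WT_Basal called 0 of 9, against 15.7% of all genes, with 1 of 9 at an unadjusted p-value under 0.05 (30.3% of all genes) and 0 of 9 apart, against 34.3% of all genes. Over both genotypes, OL against Basal called 0 of 9 in limma, against 28.6% of all genes, with 1 of 9 (*Tac1*) at an unadjusted p-value under 0.05 (39.7% of all genes), and RL against OL called 0 of 9, against 0.352% of all genes, with 0 of 9 at an unadjusted p-value under 0.05 (11.1% of all genes). The test for any difference among the 6 groups called 0 of 9, against 25.2% of all genes, with 2 of 9 (*Vip* and *Crh*) at an unadjusted p-value under 0.05, against 38.6% of all genes. Its adjusted p-values in limma were lowest for *Vip* (0.128) and *Crh* (0.129).

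Genes of the peptide system outside the 9 were taken from lists. Of 21 peptide receptor genes 19 were listed, and limma called 2 of them in any of the 9 comparisons, both higher after reversal learning than without training. Single comparisons called 0% to 23.6% of all genes, and the share called in any of the 9 was not computed. *Sstr4*, a somatostatin receptor, was at 22.3 ± 3.92 CPM in KO_RL and 15.1 ± 3.11 CPM in KO_Basal (log2 fold change 0.54, limma, adjusted p = 0.0275). *Adcyap1r1*, the receptor of PACAP, was at 259 ± 18.5 CPM in WT_RL and 214 ± 8.12 CPM in WT_Basal (log2 fold change 0.27, limma, adjusted p = 0.0371). The median log2 fold change of the 19 receptors in KO_OL against KO_Basal was 0.05, against −0.01 over all genes.

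Of 16 genes for precursor processing and dense-core vesicles, 6 were called in at least 1 of the 9 comparisons. Single comparisons called 0% to 23.6% of all genes, and the share of all genes called in any of the 9 was not computed. *Pam*, the enzyme that amidates peptides, was higher in WT_RL at 262 ± 19.2 CPM than in WT_Basal at 190 ± 8.74 CPM (log2 fold change 0.46, limma, adjusted p = 0.000402). *Chga*, a granin of the vesicle core, was higher in WT_RL than in WT_Basal (0.42, limma, adjusted p = 0.0102) and in KO_OL than in KO_Basal (0.33, limma, adjusted p = 0.0266). *Qpct*, which forms pyroglutamate ends, fell by 0.64 on the log2 scale in KO_RL against KO_Basal (limma, adjusted p = 0.00183). *Scg5*, the chaperone of a prohormone convertase, fell by 0.39 there (limma, adjusted p = 0.00984). The convertase inhibitor *Pcsk1n* and the vesicle protein *Ptprn* were the other called genes and were higher with training. In KO_OL against KO_Basal, 2 of the 16 were higher and 2 lower, with a median of 0.17 against −0.01 over all genes. Limma called 23.5% of all genes there.

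Of 20 other brain peptide genes 14 were listed and 3 were called in at least 1 of the 9 comparisons. Single comparisons called 0% to 23.6% of all genes, and the share of all genes called in any of the 9 was not computed. *Vgf*, an activity-induced granin-like precursor, was higher with training in 4 comparisons. It stood at 118 ± 8.03 CPM in KO_Basal, 195 ± 9.55 CPM in KO_OL and 205 ± 8.78 CPM in KO_RL, and the log2 fold change from KO_Basal to KO_RL was 0.79 (limma, adjusted p = 9.33e-05). In the WT mice it stood at 110 ± 12.7, 145 ± 17.4 and 177 ± 21.5 CPM in the same order of states. *Grp*, gastrin-releasing peptide, fell by 0.95 on the log2 scale in WT_RL against WT_Basal (limma, adjusted p = 0.0220), and *Nts*, neurotensin, fell by 1.03 in KO_RL against KO_Basal (limma, adjusted p = 0.0395).

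The cAMP and activity-response list, which holds regulators that act through the element printed above or are induced by firing, included genes that were higher after original learning. Of 16 genes, limma called 9 higher and 0 lower in WT_OL than in WT_Basal, against 9.5% of all genes called in either direction. Their median was 0.55 against −0.000253 over all genes, with *Fos* at a log2 fold change of 1.97 and *Egr2* at 1.90. In KO_OL against KO_Basal 5 were called higher and 1 lower, against 23.5% of all genes, with a median of 0.21. In the same comparisons *Sst*, which carries the full element, differed by 0.25 and 0.12, and neither difference was called by limma.

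Of 21 GABAergic interneuron markers, all listed and none of them a gene of the peptide group, the sum ranged from 1347 to 2236 CPM. In KO_OL against KO_Basal limma called 3 of the 21 higher and 0 lower, against 23.5% of all genes called in either direction, with a median log2 fold change of 0.12 against −0.01 over all genes. Among them were *Slc32a1*, the vesicular GABA transporter (log2 fold change 0.44), and *Dlx5*, a transcription factor of the lineage (0.47).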

How the data were processed

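Poly-A RNA from the hippocampus of 18 mice was sequenced. Per the study's methods and processing notes, the authors used STAR 2.5.1 for alignment to mm10 and for gene counts, and edgeR 3.12.1 with R 3.3.0 for TMM normalization. They deposited 1 table of log2 values for 15329 genes and 18 libraries. The methods describe CPM floored at 1, but the deposited log2 values are log2(CPM + 1): with this offset 100% of values were whole reads within 0.001 reads. The offset pulls fold changes of low genes such as *Crh* toward 0.

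Groups came from the sample titles. The 9 genes and the gene lists were chosen with earlier results of these data known. Tests between groups used limma 3.58.1 under R 4.3.3 (1 mean per group over all 18 libraries, variance trend, 12 residual degrees of freedom, two-sided), with Benjamini-Hochberg adjustment over 15329 genes, all tested. A count test on the deposited scale had been planned, and because the unit is log2 it was replaced by voom on the recovered reads, an alternative chosen after seeing the data, like the GC correction (lowess, span 0.3) and the striatal covariate. On simulated data with 200 genes changed by 1 on the log2 scale in WT_OL against WT_Basal, 91% were called, 5.7% of calls were not planted, and 0 were called without planted changes. Permutation tests of correlations drew 100000 permutations or were exact.

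All 9 genes are named. From each list at most 4 called genes with the smallest adjusted p-values were named, with *Pcsk1n*, *Ptprn*, *Drd1* and *Drd2* chosen after their values were seen. For likeness, the 3 genes with the highest r were named. A gene that these rules pick for *Vip* and one for the interneuron markers are not reported here. Positions and lengths come from GENCODE M21 on GRCm38, and GC content was found for 99.3% of genes. Promoter sequences come from RefSeq (GRCm38.p6, from 250 bases before to 50 bases after the start). Motifs were searched and correlations computed with Python 3.11.15, pandas 2.3.3 and scipy 1.17.1.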

Additional observations from a re-analysis of the deposited data

Results flagged for a closer look

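*Crh* stood out because its change from original to reversal learning had opposite directions in the genotypes. The log2 fold change of RL against OL was −0.30 in WT and 0.13 in KO, and the KO change minus the WT change was 0.43 (SE 0.175, unadjusted p = 0.0268 in limma, adjusted p = 0.581), so the difference was not called. The WT groups overlapped and the KO groups did not. For this difference between the genotypes limma called 0% of all genes.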

How the results depend on the processing

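Counts of called peptide genes were recomputed under 133 combinations of comparison and setting other than leaving out a library, and 126 kept the count. In KO_OL against KO_Basal the count was 0 in place of 1 with CPM floored at 1 before the log2 step (*Vip* −0.79, limma, adjusted p = 0.0708) and 0 with the GC correction. In KO_RL against KO_Basal it was 1 in place of 0 when only the libraries compared were fitted (*Vip*, limma, adjusted p = 0.00546) and 1 with the striatal covariate (*Tac1*), and over both genotypes OL against Basal gave 1 (*Tac1*) with that covariate. Leaving out 1 library kept 128 of 138 counts. The range was 0 to 1 in KO_OL against KO_Basal, 0 to 1 for OL against Basal over both genotypes (*Tac1* without KO_OL replicate 2), 0 to 1 for the difference between genotypes with original learning, and 0 to 1 for any difference among the groups (*Crh* without WT_OL replicate 1, *Vip* without WT_OL replicate 3, *Pdyn* without KO_RL replicate 2). The causes were not tested. No direction turned among the 14 single differences recomputed.

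Replicate numbers are shared by the groups but do not pair the mice: deviations of same-numbered libraries correlated with a median r of −0.0227 (−0.635 to 0.547 over 45 pairs), and 7 of 18 libraries correlated best with their own number. With the replicate block, *Vip* was called in KO_OL against KO_Basal (limma, adjusted p = 0.00897), in KO_RL against KO_Basal (count 1, limma, adjusted p = 0.0174) and for any difference among the groups (count 1), and no other count moved. With 3 mice per group, the standard errors of *Penk* differences (0.736 on the log2 scale) limit what could be called, and *Crh* rested on 35 to 71 reads per library. Upper quartile scaling shifted a library by at most 0.121 on the log2 scale.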

Other observations

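Marker lists of the other cell types in hippocampal tissue were counted by limma over the same 9 comparisons. Single comparisons called 0% to 23.6% of all genes, and the share called in any of the 9 was not computed. Of 15 choroid plexus genes 15 were higher in at least 1 comparison, among them *Folr1* by a log2 fold change of 3.32 in KO_OL against KO_Basal. Of 10 microglial genes 6 were called, 2 higher and 4 lower, with *P2ry12* lower by −0.92 in KO_RL against KO_Basal. Of 10 astrocyte genes 5 were called, 4 higher and 1 lower, with *Gjb6* higher by 0.80 in WT_RL against WT_Basal. Of 12 dentate granule genes 4 were called, 1 higher and 3 lower. Of 8 CA1 genes 3 were called, and of 9 listed CA2 and CA3 genes 3, each with 2 higher and 1 lower. Of 12 thalamic and habenular genes 3 and of 12 neocortical genes 2 were called, all higher. Of 9 endothelial genes 4 were called, 1 higher and 3 lower. Of 10 oligodendrocyte genes 1 and of 4 listed pituitary genes 1 were called, both lower, and of 11 listed hypothalamic genes 0. Their part in the peptide values was not tested.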
